A study of Arabidopsis thaliana with 9 samples.

Results

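The psbB gene cluster is a block of 6 neighbouring genes in the chloroplast genome, psbB, psbT, psbN, psbH, petB and petD. Its members were found by annotation: a probe set of the array was taken where the platform annotation gave it 1 gene and that gene was one of the 6 in the chloroplast. Each gene had exactly 1 such probe set, so there were 6 members among 69 chloroplast-encoded probe sets and 22746 probe sets in all, and no probe set was shared by a member and another gene. All 6 passed the filter on low signals described below.

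The samples were whole rosettes of Arabidopsis thaliana at 15 days after sowing, grown at 22 degrees on plates of MS agar with light and dark periods of 12 h. There were 3 groups, each of 3 biological replicates with 1 array per replicate: the inbred accession Col-0 (Col), the inbred accession C24 and the F1 hybrid of the cross C24 x Col. The labels name no transgene and no treatment in any group. They do not say how many plants were pooled in a sample, at what hour they were harvested or whether C24 or Col was the seed parent, from which the chloroplasts of an Arabidopsis hybrid come.

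Photosystem II and the cytochrome b6f complex sit in the thylakoid membrane and carry electrons between water oxidation and photosystem I. In the chloroplast genome psbB, psbT, psbH, petB and petD lie on one strand and are transcribed together into a long precursor RNA, which is then spliced and cut into many smaller transcripts whose ends are protected by nucleus-encoded RNA-binding proteins. psbN lies between psbT and psbH on the opposite strand and is read from a promoter of its own. A microarray probe set reports every labelled RNA that carries its stretch of sequence, precursor or processed. The labels name the array maker's standard labelling procedure without its primer; mature chloroplast mRNAs carry no long poly(A) tail, so how fully they were labelled is not known here.

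Values are MAS5 signals on a linear scale, scaled by the authors so that every array has nearly the same trimmed mean (500.05 on each). A difference is therefore relative to the rest of the array. Whether sequence differences between the accessions affect the probes was not tested. Signals of different probe sets are not comparable as levels, so members are set against each other only by their differences between groups. Differences are given on the log2 scale with standard errors (SE) from limma, fitted to 13648 probe sets and all 9 arrays, and a difference was called when its Benjamini-Hochberg adjusted p was under 0.05. Of the leaf markers, 2 of 9 were tested, with group means of 31676 to 36793 for RCA, the activase of Rubisco, and 21505 to 30716 for LHCB4.2, a light-harvesting protein, and neither was called in F1 against the mid-parent or Col. LHCB4.2 was lower in C24 than in Col (-0.51, adjusted p = 2.30e-05) and higher in F1 than in C24 (0.42, adjusted p = 0.000468), opposite in direction to most chloroplast-encoded calls in the latter comparison. Of 4 root markers 1 was tested, PYK10, a beta-glucosidase of roots and seedlings, with a mean of 2726 in Col, 1985 in F1 and 92.0 in C24. Of 4 stomatal lineage markers 1 was tested (FMA, group means of 171 to 215), and of 4 flower and seed markers 0 were named. Their part in the results was not tested.

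Among the photosystem II genes, psbB encodes CP47, the inner antenna protein of the photosystem II core. Its signal was 2385, 2220.1 and 2262 in the 3 Col arrays, 2168, 1991 and 2132 in the C24 arrays and 1429.9, 1132 and 1155 in the F1 arrays. Every F1 array lay below every parental array, by at least 561 signal units, and the Col and C24 arrays lay close to each other without overlapping.

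psbT encodes a small membrane subunit of photosystem II. It read 838, 885 and 1137 in Col, 1071, 1095 and 1146 in C24 and 613, 463 and 595 in F1. The F1 arrays were again the lowest, while Col replicate 3 reached the C24 range and the other Col arrays stayed under it.

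psbN, the gene on the opposite strand, encodes a small membrane protein that in tobacco is needed to assemble photosystem II. Its signals were 1956, 1681 and 1944 in Col, 1958, 1933 and 1924 in C24 and 1228, 1114 and 963 in F1. The parents overlapped and all F1 arrays lay below both.

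psbH encodes a small phosphoprotein of the photosystem II core. It gave 6625, 7211 and 6288 in Col, 6687, 5903 and 6211 in C24 and 4628, 5074 and 4679.8 in F1. The F1 arrays lay below the parents here too, by at least 828 signal units.

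The remaining genes belong to the cytochrome b6f complex. petB encodes cytochrome b6, and its signals were 23781, 24129 and 26408 in Col, 24470.2, 24766 and 22145 in C24 and 21224, 24073 and 24098 in F1. The ranges of all 3 groups overlapped.

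petD encodes subunit IV of the same complex. Its probe set was dim. It gave 172, 147 and 198 in Col, 202, 88.0 and 115 in C24 and 125, 106 and 163 in F1, and C24 replicate 2 lay under the filter signal of 89.9, which was applied to the mean over all arrays. The groups overlapped, and C24 replicates 1 and 2 differed 2.29-fold from each other, the widest spread within a group for any member.

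**Figure D1:**
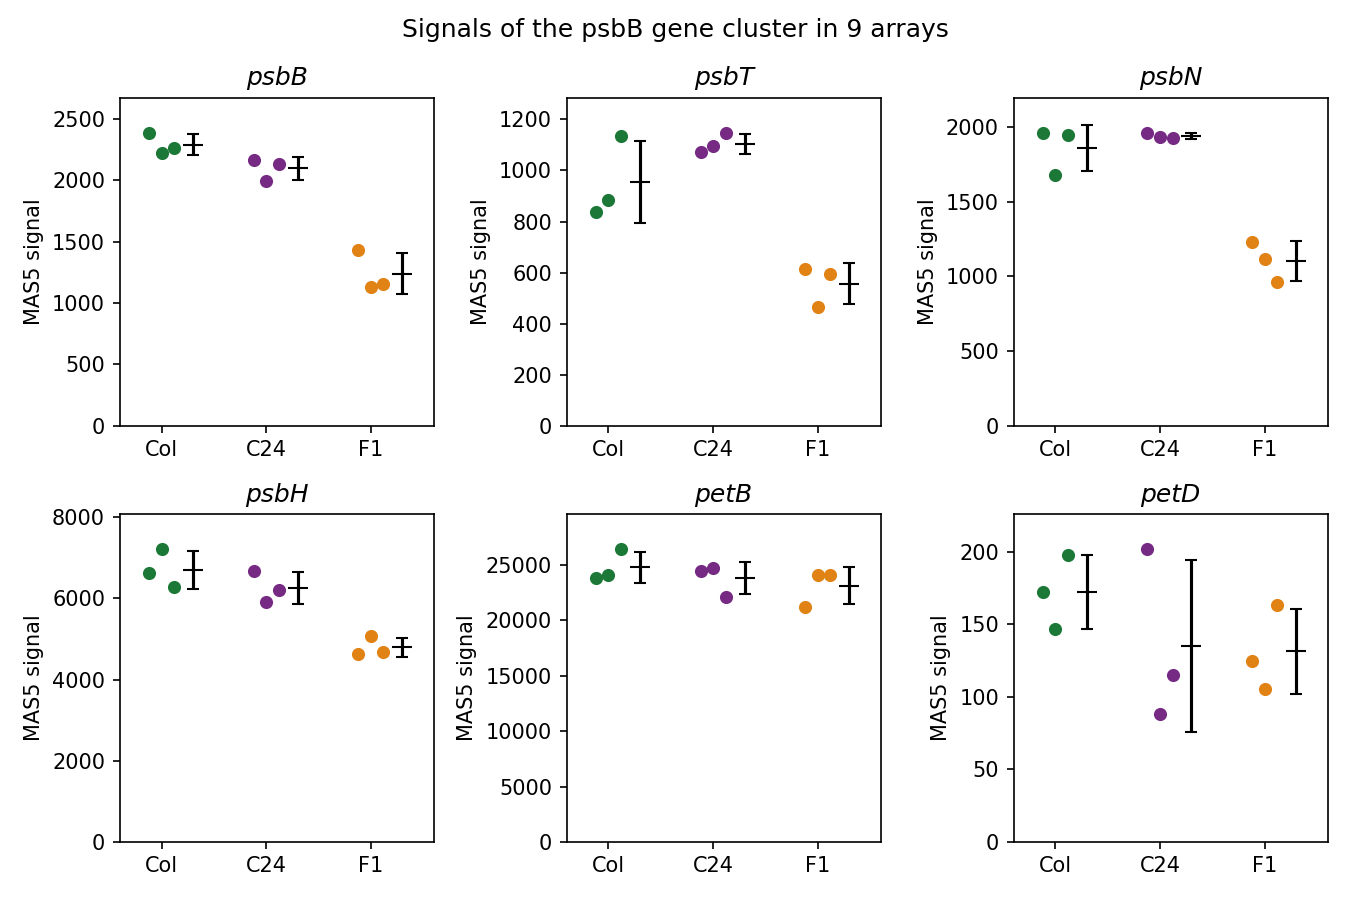
MAS5 signal (linear axis from 0) of each cluster member in the 3 Col, 3 C24 and 3 F1 arrays; points are single arrays in the order of replicates 1 to 3, and the bar beside them is the mean ± SD. F1 points lie below all parental points for psbB, psbT, psbN and psbH and overlap them for petB and petD.

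The comparison of C24 with Col asked whether the inbred parents differed in this cluster. No member was called, 0 of 6 against 30.9% of all probe sets tested (15.7% higher and 15.2% lower in C24, or 2139 and 2081 probe sets, which became 1614 and 2605 after median centring), and 0 of the 6 had an unadjusted p under 0.05 in limma. The differences ran from -0.43 for petD to 0.22 for psbT, with a median of -0.08 against 0.03 over all probe sets tested. For petB the 95% interval of the difference was -0.22 to 0.10 and for psbH -0.27 to 0.08. psbN differed by 0.06 (interval -0.16 to 0.29). psbB stood at 2289 ± 85.8 in Col and 2097 ± 93.6 in C24 (SD, n = 3), a difference of -0.13 (SE 0.10, adjusted p = 0.387), although its arrays did not overlap, as was the case in 21.3% of all probe sets in that direction. The mean of psbT was 953 ± 161 for Col against 1104 ± 38.7 for C24 (limma adjusted p = 0.240). The interval for petD, -1.04 to 0.18, was the widest of the members and included 0. With 3 arrays against 3 an exact test of a single gene could not go below p = 0.1, so calls rest on the spread that limma shares among probe sets.

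The hybrid was then set against each parent. Against Col, the photosystem II genes psbB, psbT and psbH and the opposite-strand gene psbN fell in F1, and petB and petD were not called. Calls made up 11.5% of all probe sets tested in this comparison, 6.37% higher and 5.08% lower in F1. F1 levels were 54.1% of the Col mean for psbB, 58.4% for psbT, 59.2% for psbN and 71.5% for psbH. The log2 differences were -0.89 for psbB (SE 0.10, adjusted p = 3.67e-05), -0.77 for psbT (SE 0.14, adjusted p = 0.00150), -0.76 for psbN (SE 0.11, adjusted p = 0.000215) and -0.48 for psbH (SE 0.08, adjusted p = 0.00121). petB differed by -0.10, with an interval of -0.26 to 0.06 (adjusted p = 0.453). petD differed by -0.40, with an interval of -1.01 to 0.20 (adjusted p = 0.410), so that a fall as large as that of psbB lies inside its interval.

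Against C24, psbB, psbT, psbN and psbH fell in F1 as well. Both comparisons share the F1 arrays, so they are not independent. Calls made up 14.3% of all probe sets, 7.55% higher and 6.75% lower in F1 (1030 and 921 probe sets, which became 1243 and 722 after median centring). F1 reached 59.1% of the C24 mean for psbB, 50.4% for psbT, 56.8% for psbN and 76.5% for psbH. The differences were -0.77 for psbB (SE 0.10, adjusted p = 0.000109), -0.998 for psbT (SE 0.14, adjusted p = 0.000133), -0.82 for psbN (SE 0.11, adjusted p = 7.51e-05) and -0.39 for psbH (SE 0.08, adjusted p = 0.00499). petB differed by -0.04 (interval -0.20 to 0.12) and petD by 0.03 (interval -0.58 to 0.63).

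**Figure D2:**
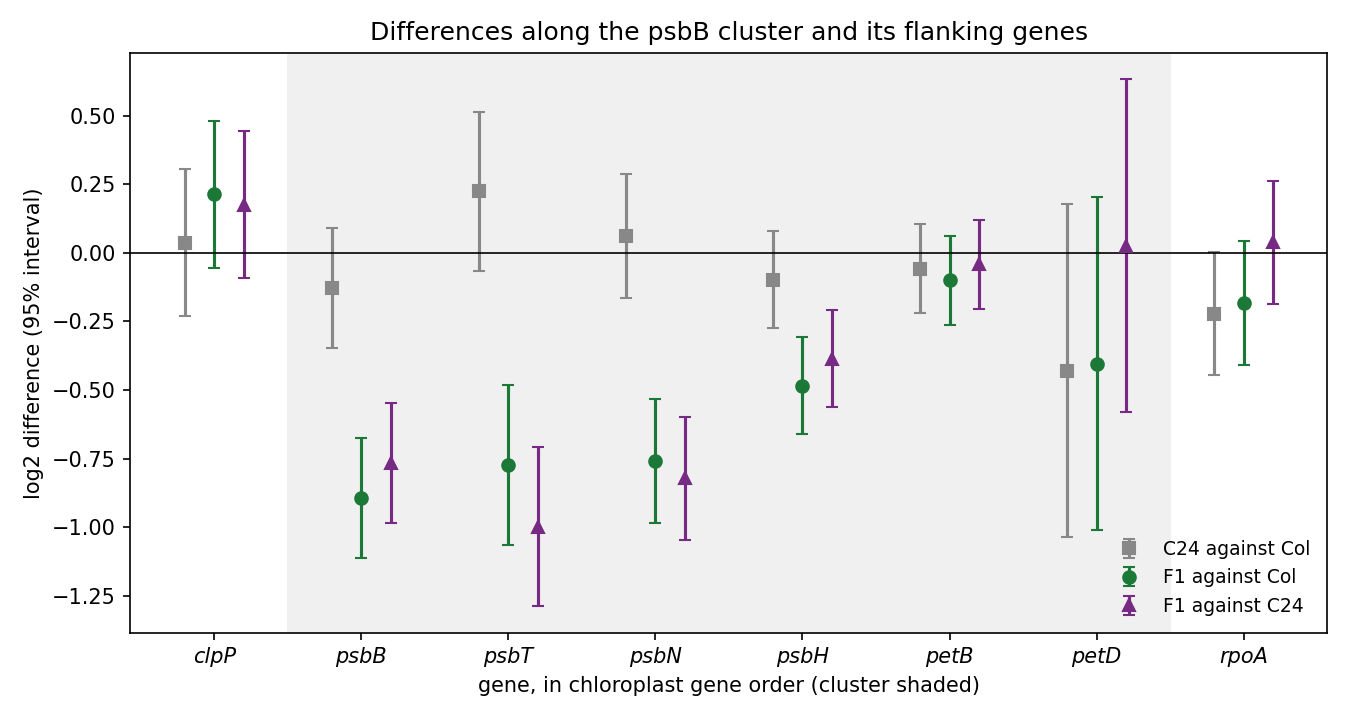
Log2 differences with 95% intervals (limma) for the 6 members and the flanking genes clpP and rpoA, set out in chloroplast gene order, in 3 comparisons. Both F1 comparisons lie below 0 from psbB to psbH (-0.39 to -0.998) and their intervals include 0 at petB, petD, clpP and rpoA.

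The mid-parent, the average of the Col and C24 mean signals, served to ask whether the hybrid lay at the mean of its parents. As the chloroplasts come from the seed parent, it is a reference level and not an expected level for chloroplast-encoded genes. A call here does not by itself place F1 outside the parental range. Where the parents differ, F1 can be called while it lies near 1 parent, as for psbJ (means of 13288 in Col, 6884 in C24 and 7097 in F1). psbB, psbT, psbN and psbH lay below the mid-parent, and petB and petD were not called. Calls made up 3.3% of all probe sets tested, 1.68% higher and 1.62% lower. F1 levels were 56.5% of the mid-parent signal for psbB, 54.1% for psbT, 58.0% for psbN, 73.9% for psbH, 95.3% for petB and 85.5% for petD. The log2 differences were -0.83 for psbB (SE 0.09, adjusted p = 4.02e-05), -0.89 for psbT (SE 0.12, adjusted p = 0.000280), -0.79 for psbN (SE 0.09, adjusted p = 8.70e-05) and -0.44 for psbH (SE 0.07, adjusted p = 0.00211). petB stood at -0.07 with an interval of -0.21 to 0.07, and petD at -0.21 with an interval of -0.73 to 0.32.

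A stricter question was whether F1 lay below both parents, each difference being past the threshold. psbB (adjusted p = 0.00113), psbN (adjusted p = 0.00166) and psbT (adjusted p = 0.0124) did, and psbH did not (adjusted p = 0.0581), against 0.506% of all probe sets beyond both parents, 0.403% higher and 0.103% lower. The F1 arrays of psbB, psbT, psbN and psbH all lay below every parental array, as did those of 2.31% of all probe sets. The call of psbT was lost without Col replicate 3 (adjusted p = 0.0679), without F1 replicate 2 (0.0728), without an intensity trend (0.104) and when upward and downward differences were adjusted as separate families (0.0507), and psbH was called after quantile normalization (0.0163).

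By size of difference, psbB, psbT and psbN differed from the mid-parent by -0.79 to -0.89, psbH by -0.44 and petB by -0.07. The petD interval held the values of psbH and petB and not those of the other members, which is no test of a difference between genes. Each member was also tested against petB, by subtracting the petB signal within each array before the fit; petB was picked as the reference after it had been seen to be the least changed member. The other members were not tested against each other, so whether psbH differed from psbB, psbT and psbN was not tested. Relative to petB, F1 lay below the mid-parent by -0.76 for psbB (SE 0.12, adjusted p = 0.000565), -0.82 for psbT (SE 0.14, adjusted p = 0.000621) and -0.72 for psbN (SE 0.12, adjusted p = 0.000774), against 0.872% of probe sets lower on that scale. petD, at -0.13 (interval -0.64 to 0.38, limma adjusted p = 0.874), was not called. psbH, at -0.36 (SE 0.10, adjusted p = 0.0504), did not pass, and it crossed the threshold in 7 of the alternatives (adjusted p = 0.0227 to 0.0464), among them the replicate block (0.0393) and leaving out Col replicate 3 (0.0227) or C24 replicate 2 (0.0390). Relative to petB, psbH was called in F1 against Col (-0.38, adjusted p = 0.0358) and not in F1 against C24 (-0.34, adjusted p = 0.0572), with 2.06% and 4.2% of probe sets lower. The call against Col was lost in 6 alternatives, among them leaving out Col replicate 1, Col replicate 2, F1 replicate 2 or F1 replicate 3 (adjusted p = 0.109, 0.177, 0.0767 and 0.119). psbT relative to petB lost its call in F1 against Col without F1 replicate 2 (adjusted p = 0.0554). In C24 against Col 0 of the 5 other members were called relative to petB, against 26.3% of probe sets.

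The chloroplast-encoded genes outside the cluster also stood lower in F1, and lower in C24 than in Col. In C24 against Col 21 were lower and 8 higher, with a median of -0.17 against 0.03 over all probe sets tested. Of the 63 tested, 31 were lower and 6 higher in F1 than in Col, 15 were lower and 1 higher than in C24, and 23 were lower and 2 higher than the mid-parent, with medians of -0.31, -0.14 and -0.26 against -0.01, -0.02 and -0.03 over all probe sets tested. In whole rosettes, fewer chloroplast-rich cells and less of an RNA per cell cannot be told apart. The members were therefore tested again after subtracting, in each array, the median of these 63 chloroplast probe sets. psbB, psbT and psbN were still lower in F1 than the mid-parent, by -0.58 (SE 0.09, adjusted p = 0.000696), -0.65 (SE 0.12, adjusted p = 0.00176) and -0.54 (SE 0.10, adjusted p = 0.00197), against 0.872% of probe sets called lower on that scale. That share covers all probe sets, which the subtraction raised together in F1, and was 1.62% before it. Before it, psbT, psbB and psbN were numbers 8, 11 and 14 from the lowest of the 69 chloroplast-encoded probe sets. How many of the 63 were lower on the chloroplast scale was not counted. psbH, at -0.18 (interval -0.35 to -0.01, adjusted p = 0.109), and petB, at 0.18 (interval 0.01 to 0.35, adjusted p = 0.102), were not called, and petD was at 0.06. With 37 photosynthesis genes as the reference petB was called (0.24, adjusted p = 0.0236), as it was without F1 replicate 1 (0.29, adjusted p = 0.0115). Adjustment was milder after either subtraction, which raised all probe sets in F1 together. The limma unadjusted p of petB with the photosynthesis reference was 0.00591. On the array scale psaA, with an unadjusted p of 0.00628 against the mid-parent, had an adjusted p of 0.108.

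On the same chloroplast scale psbB, psbT and psbN were lower in F1 than in C24, by -0.62, -0.85 and -0.68 (adjusted p = 0.000635, 0.000308 and 0.000579), where 3.47% of probe sets were lower. They were lower in F1 than in Col by -0.53, -0.41 and -0.40 (adjusted p = 0.00137, 0.0216 and 0.0116), where 1.22% were lower. petB was higher in F1 than in Col by 0.26 on this scale (adjusted p = 0.0275), as were 45.5% of all probe sets, a direction opposite to its difference on the array scale, and that call was lost in 5 alternatives (adjusted p = 0.0975 to 0.138), among them leaving out Col replicate 2, F1 replicate 2 or F1 replicate 3 (0.104, 0.111 and 0.115). The call of psbT was lost without Col replicate 3 or F1 replicate 2 (adjusted p = 0.0947 and 0.101). In C24 against Col psbT was higher on this scale (0.44, adjusted p = 0.0153), where 32.8% of probe sets were higher. That call was lost after quantile normalization (adjusted p = 0.106) and without Col replicate 1, Col replicate 2 or C24 replicate 3 (adjusted p = 0.0516, 0.0866 and 0.0577). Adjusted p on the chloroplast scale was taken over all probe sets, which the subtraction raised together, so adjustment was milder than on the array scale. In F1 against Col the limma unadjusted p of psbT on the chloroplast scale was 0.00762. On the array scale rpl14, with an unadjusted p of 0.00721 in that comparison, had an adjusted p of 0.0580.

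**Figure D3:**
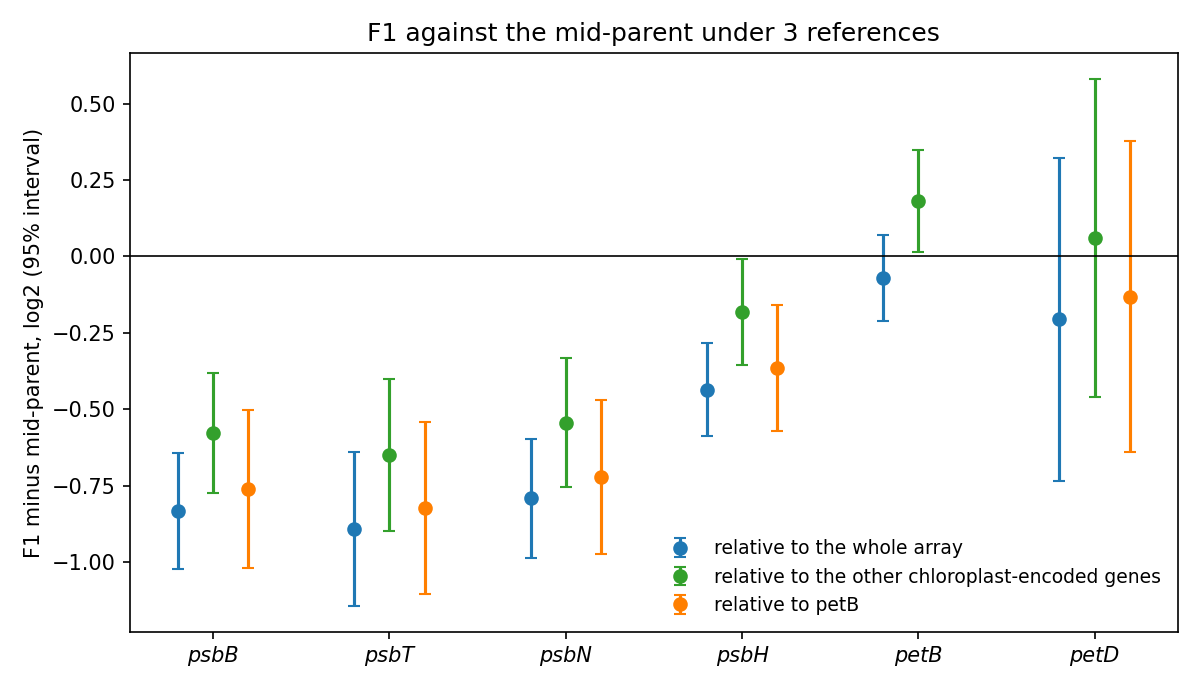
F1 minus mid-parent on the log2 scale with 95% intervals, for each member relative to the whole array, to the median of 63 other chloroplast-encoded probe sets and to petB. psbB, psbT and psbN stay below 0 under each reference (-0.54 to -0.89), while petB changes sign from -0.07 to 0.18. The petB reference was picked from these data as the least changed member, so it is not an independent check.

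Neither gene flanking the cluster was called in any comparison on the array scale. clpP, which encodes a subunit of the chloroplast Clp protease and precedes psbB, had means of 17891 ± 3982 (Col), 18089.8 ± 1176 (C24) and 20494 ± 2261 (F1), 0.19 above the mid-parent (interval -0.04 to 0.43, adjusted p = 0.400). rpoA, which encodes the alpha subunit of the chloroplast RNA polymerase and follows petD, had means of 21260.5 ± 3069 (Col), 18151 ± 1451 (C24) and 18677 ± 2155 (F1), -0.08 from the mid-parent (interval -0.27 to 0.12, adjusted p = 0.731). Relative to the other chloroplast-encoded genes clpP was higher in F1 than in Col (0.58, adjusted p = 0.00253) and than the mid-parent (0.44, adjusted p = 0.0121), and rpoA was not called. Farther out, rpl20 before clpP and rpl36 after rpoA, both ribosomal protein genes, were lower than the mid-parent (-1.24 and -0.65, adjusted p = 0.000128 and 0.000200). Both were also lower in C24 than in Col (-0.51 and -0.70, limma adjusted p = 0.0355 and 4.52e-05). In F1 against C24 rpl20 was lower (-0.96, adjusted p = 0.00141) and rpl36 was not called (-0.26, adjusted p = 0.0828).

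Among the 69 chloroplast-encoded probe sets ordered from the lowest difference to the mid-parent, psbT was number 8, psbB number 11, psbN number 14, psbH number 27, petD number 39 and petB number 52. In F1 against C24 psbT, psbN and psbB were numbers 4, 8 and 9. The cluster therefore held some of the lower values without holding the lowest, which was petG, a small cytochrome b6f subunit gene, at -2.55.

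**Figure D4:**
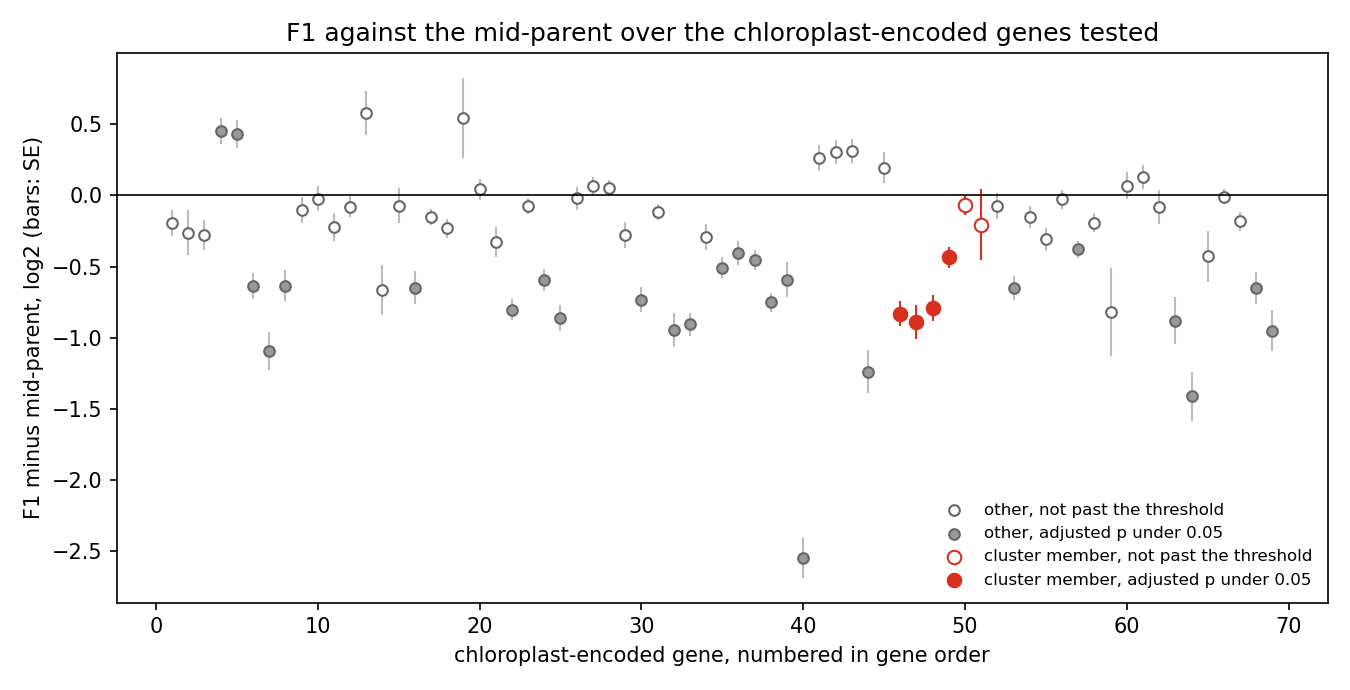
F1 minus mid-parent on the log2 scale (bars are SE) for the 69 chloroplast-encoded probe sets tested, numbered in gene order; red marks the psbB cluster and filled points passed an adjusted p of 0.05. The 4 filled members lie together, with petB and petD nearer to 0 beside them.

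The partner genes of the same complexes were split. Of 11 chloroplast-encoded photosystem II genes outside the cluster, 5 were lower and 2 higher than the mid-parent (median -0.23). The lower ones were psbE, psbF, psbL and psbJ, which encode cytochrome b559 and small subunits and lie together in the genome, at -0.75, -0.45, -0.40 and -0.51, and psbD, the gene of the D2 reaction-centre protein, at -0.65. psbI and psbK, small subunit genes, were higher (0.43 and 0.45). Those genes differed between the parents as well: 6 of the 11 were lower and 2 higher in C24 than in Col, and 1 of 11, psbE, was called in F1 against C24 (-0.25, adjusted p = 0.0454). By the stricter test 0 of the 11 lay beyond both parents. Over all 63 chloroplast-encoded genes outside the cluster 8 lay below both parents, as did 3 of the 6 members, out of 14 such probe sets on the whole array. The 8 were petG, ndhE, atpF, atpA, rpl20, accD, cemA and ycf4, so lying below both parents was not particular to the cluster.

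Of 5 cytochrome b6f genes outside the cluster that were tested, petG and petL, both small subunit genes, were lower than the mid-parent (-2.55 and -0.59) and the other 3, petA among them, were not called. petL was higher in C24 than in Col (0.91, limma adjusted p = 0.000143). Against Col, F1 was not called for petL (-0.07, adjusted p = 0.809) and was lower for petG (-1.80). petA, which encodes cytochrome f, was lower in C24 and in F1 than in Col (-0.55 and -0.54). Of the other chloroplast lists, 1 of 5 photosystem I genes (psaC, -0.88), 3 of 6 ATP synthase genes (atpA, atpF and atpH, -0.64, -1.09 and -0.64), 4 of 10 genes of the NADH dehydrogenase-like complex (ndhE, ndhK, ndhH and ndhJ, -1.41, -0.86, -0.65 and -0.59) and 4 of 20 gene-expression genes (rpl20, rps15, rpl36 and rpl22, -1.24, -0.95, -0.65 and -0.38) were lower than the mid-parent, and 0 were higher. Their medians were -0.12, -0.37, -0.51 and -0.12. Of the genes named from these lists, ndhK, ndhJ, rps15 and rpl36 were also lower in C24 than in Col (-1.02, -0.77, -0.83 and -0.70). These genes were not called in F1 against C24 (limma adjusted p = 0.111, 0.271, 0.0733 and 0.0828), where the others named from the lists were lower.

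Few of the nuclear genes that serve the cluster were named. Of 18 factors of chloroplast transcription and RNA processing 1 was tested, AT5G42310, the Arabidopsis counterpart of maize CRP1, a protein needed for petB and petD RNA processing in maize. Its means were 1283 ± 134 (Col), 883 ± 53.5 (C24) and 1178 ± 88.8 (F1), lower in C24 than in Col (-0.53, adjusted p = 0.00156), and F1 differed from the mid-parent by 0.12 without being called. Of 4 assembly factors tested, LPA2 and PAM68, which act on photosystem II, and CCB3, which acts on cytochrome b6, were lower in C24 than in Col (-0.35, -0.51 and -1.55), and 0 of 4 were called against the mid-parent (median -0.0019). Of 2 nuclear photosystem II subunit genes tested, PSBY was lower in C24 than in Col (-0.25, adjusted p = 0.0116) and 0 were called against the mid-parent.

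How far the members resembled each other was described by the root-mean-square distance between their profiles over the 9 arrays, each profile being log2 signals less their own mean. Of the 15 pairs, psbB and psbN were nearest, at 0.11, and psbT and petD farthest, at 0.53. psbT lay 0.19 from psbN and 0.21 from psbB, psbH lay nearest to petB, at 0.20, and 0.23 from both psbB and psbN and 0.33 from psbT, and petB lay 0.39 from psbB. Among the F1 arrays replicate 1 was the highest for psbB, psbT and psbN, replicate 2 for psbH and replicate 3 for petB and petD. The nearest pair thus joined genes on opposite strands. The photosystem II gene psbH lay slightly nearer to the cytochrome b6f gene petB (0.20) than to psbB and psbN (0.23), a margin that was not tested. By calls, psbB, psbT, psbN and psbH were lower in F1 against Col, C24 and the mid-parent, and petB and petD were not called.

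Profiles of genes outside the cluster were set beside them in the same way. psbB and psbN each lay nearer to the other than to any of the 7348 named probe sets outside the cluster, of which the nearest to both was accD (0.13 from each), a chloroplast gene for acetyl-CoA carboxylase, whose means were 2348 ± 182 (Col), 2236 ± 144 (C24) and 1381 ± 142 (F1). For psbT, psbH, petB and petD the nearest were AT3G27930 (0.17), Mfl1 (0.08), AT3G28900 (0.05) and AT4G16180 (0.16), none of them in the chloroplast. For these 4 a gene outside lay nearer than any member. The 10 nearest to the mean profile of the 6 members were AT1G11820, UGT71B1, AT3G24670, AN, AT1G76120, Mfl1, ndhH, AT4G02820, nad4 and AT3G26560, at distances of 0.09 to 0.14. Of these, 1 was chloroplast-encoded, ndhH, as were 0.857% of the candidates. Its means were 395 ± 17.2 (Col), 329.9 ± 27.2 (C24) and 231 ± 10.6 (F1). The mean profile averages members called lower in F1 with petB and petD, which were not. psbB, psbT and psbN lay 0.17, 0.24 and 0.17 from it, farther than any of the 10 nearest genes.

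The size of the F1 difference also went with the brightness of the probe set. Among the 63 chloroplast probe sets outside the cluster, 5 of 27 with a mean signal of 10000 or more were lower than the mid-parent (median -0.12), against 18 of 36 dimmer ones (median -0.55). Of the members, petB was above that signal and the other 5 below it, and both flanking genes were above it as well. The brightest signal of any probe set on an array was 41760.5 to 52478. The part of signal level in the difference between petB and the other members was not tested.

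**Figure D5:**
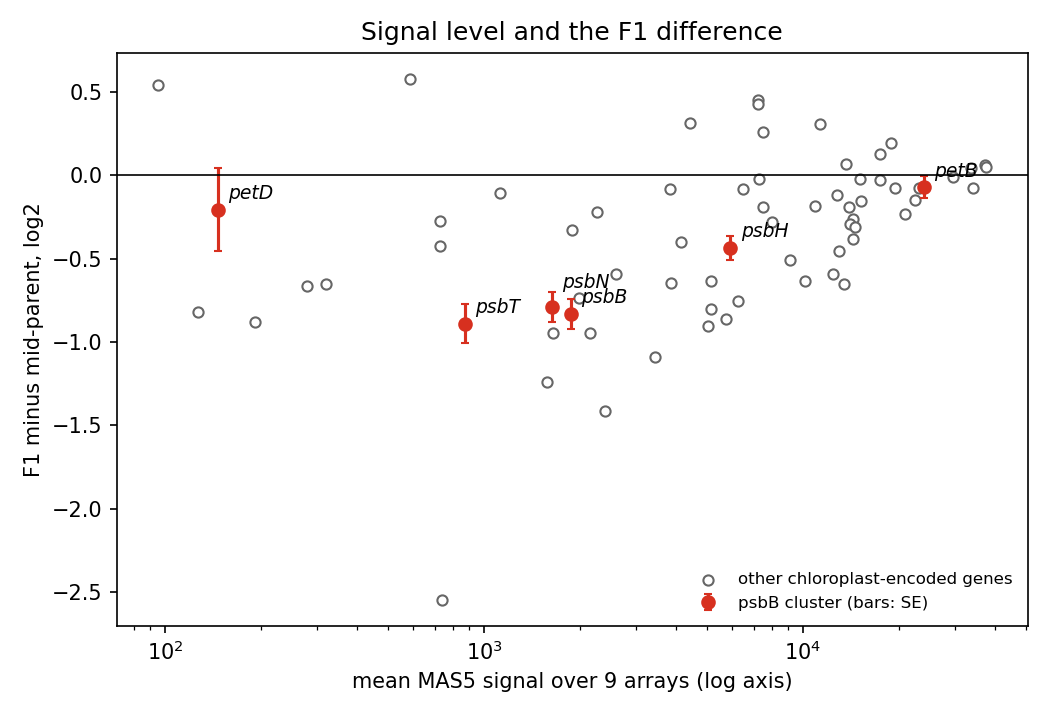
F1 minus mid-parent (log2) against the mean MAS5 signal over 9 arrays (log axis) for the chloroplast-encoded probe sets; red points are cluster members with SE bars. petB, at the bright end, lies near 0, psbH lies at -0.44 and psbB, psbT and psbN at -0.79 to -0.89 at lower signals, while petD, with the lowest mean signal (146), lies at -0.21 with a wide error.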

How the data were processed

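The file held 1 intensity value per probe set and array, deposited by the authors as linear MAS5 signals, per the submitters' processing notes; its version and settings were not given in the sources used here. Of 22810 probe sets, 64 array-maker controls were left out. Probe sets were named from the platform annotation through the RefSeq gene table (TAIR10.1), used for names and gene order only. Signals were taken to log2, probe sets under the 40th percentile of mean log2 signal (6.49, a signal of 89.9) were dropped, and group means were fitted to 13648 probe sets in 9 arrays by limma (version 3.58.1, R 4.3.3; eBayes with an intensity trend, two-sided, Benjamini-Hochberg over all probe sets tested). The code was tested on simulated data. The mid-parent standard error came from the delta method. F1 was below both parents where both differences were negative and the larger p passed after adjustment.

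Every member was named, as were both flanking genes, list genes that were called (at most 8 a list) and the 10 nearest profiles; accD, rpl20 and rpl36 were also named beside them. Members, lists and tests were chosen with earlier results of these data known, and the reference to petB and the count by signal were added after seeing the data. Replicates are biological per the labels, but nothing further on their origin is given. Precision is limited by the number of arrays. No sequences were available among the sources used here for these genes, so none are shown. Alternatives were 2 filters, 2 normalizations, a pseudocount of 16, no intensity trend, only the groups compared, a replicate block, a mid-parent on logs, another chloroplast reference and each array left out.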

Additional observations from a re-analysis of the deposited data

How the results depend on the processing

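The calls of psbB, psbT, psbN and psbH in F1 against Col, against C24 and against the mid-parent, and the absence of a call for petB and petD there, held under every alternative run, with 4 members called in each; in C24 against Col 0 were called in each. The 60th-percentile filter left petD untested. Quantile normalization and median centring moved the median of all probe sets by less than 0.1. Counts over all probe sets were 999 to 1517 in F1 against Col when 1 array was left out (999 without Col replicate 2, against 1563), 284 to 420 against the mid-parent (284 without F1 replicate 3, against 450) and, with no intensity trend, 264 against the mid-parent and 39 beyond both parents (against 69). Relative to other chloroplast-encoded genes, 0 to 2 members were called in C24 against Col (0 without Col replicate 2 or C24 replicate 3, 2 without F1 replicate 3) and 2 to 4 in F1 against Col (2 without F1 replicate 2) with 1 array left out. Relative to petB, 2 to 4 were called in F1 against Col (2 without F1 replicate 2).

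Changes of sign were seen in differences that were not called. In C24 against Col petB was 0.13 after quantile normalization, psbN -0.018 after median centring and -0.0085 to 0.10 with 1 array left out, psbN relative to petB -0.044 after quantile normalization, and psbH relative to petB -0.13 to 0.033 with 1 array left out. In F1 against C24 petB was 0.0043 after median centring and -0.092 to 0.019, and petD -0.24 to 0.36, with 1 array left out. Relative to the chloroplast genes and with 1 array left out, petD was -0.52 to 0.046 in C24 against Col, -0.24 to 0.081 in F1 against Col (0.013 with the photosynthesis genes as reference), -0.082 to 0.49 in F1 against C24 and -0.14 to 0.20 against the mid-parent. The cause was not tested.

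The replicate numbers are not stated to mark a shared batch, and deviations of same-numbered arrays correlated at -0.0015 to 0.117, not above 0.1 in every pair, so they were not taken as pairs, though 9 of 9 arrays correlated best with one of their own number. With the replicate block 0 members were called in C24 against Col, 4 in each F1 comparison and 3 beyond both parents, as without it, and 1844 probe sets in F1 against Col. The block changed 1 call of a member, psbH relative to petB against the mid-parent (adjusted p = 0.0393, against 0.0504), so that 4 members were called there in place of 3.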
